A study of Mus musculus with 12 samples.

Results

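Cell cycle and replication genes were followed in the livers of mice given Rspo2-AAV, an adeno-associated virus that delivers Rspo2, and of mice given a Gfp-AAV control vector. All mice, controls included, were labelled as Apoe knockouts, a strain without functional apolipoprotein E that is used in work on blood lipids. There were 6 Rspo2-AAV samples (numbers 1, 2, 4, 5, 6 and 7) and 6 control samples (numbers 1 to 6), and the labels do not give the age, the time after injection or the promoter of the vectors. The 36 genes were taken by symbol from a fixed list of cyclins, cyclin-dependent kinases, their inhibitors, mitotic regulators, replication factors and transcription factors. Each symbol matched 1 of the 54532 rows of the expression table. The question was whether R-spondin 2, which strengthens Wnt/beta-catenin signalling, came with a change in the transcripts of proliferation.

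Cells enter the cycle when D-type cyclins with Cdk4 and Cdk6, and then E-type cyclins with Cdk2, relieve the block that Rb proteins place on E2F factors. E2F factors switch on the replication genes, and later Foxm1 and partner complexes switch on cyclin B, Cdk1 and the mitotic genes. Most hepatocytes of an adult liver rest outside the cycle, many of them polyploid, and re-enter it after injury or loss of tissue.

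Stretches of 4 members' promoters are printed because they hold elements known from cell cycle promoters, which not every member has. The sequences are those of RefSeq (GRCm38.p6), in which 28 of the 36 genes were matched. Those not matched were Aurkb, Ccnd1, Ccnd2, Ccne2, Ccna2, Mcm4, Myc and Foxm1. Both strands of the 250 bases before the start site were searched for the cell cycle homology region TTTGAA, for the E2F sites TTTCCCGC, TTTCGCGC, TTTGCCGC and TTTGGCGC, for the NF-Y box CCAAT, and for the TCF site CTTTGAT. Capitals mark TTTGAA, E2F and CCAAT matches on either strand, and neighbouring capitals can be overlapping matches.
Mki67 (chr7:135716466-135716573, minus strand): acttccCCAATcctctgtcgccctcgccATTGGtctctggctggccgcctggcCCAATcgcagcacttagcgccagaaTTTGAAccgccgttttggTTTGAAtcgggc
Ccnb2 (chr9:70421565-70421727, minus strand): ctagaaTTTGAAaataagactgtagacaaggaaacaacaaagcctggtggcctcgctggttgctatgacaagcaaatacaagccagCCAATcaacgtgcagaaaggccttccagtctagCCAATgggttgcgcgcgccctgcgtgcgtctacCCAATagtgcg
Cdk1 (chr10:69352916-69353126, minus strand): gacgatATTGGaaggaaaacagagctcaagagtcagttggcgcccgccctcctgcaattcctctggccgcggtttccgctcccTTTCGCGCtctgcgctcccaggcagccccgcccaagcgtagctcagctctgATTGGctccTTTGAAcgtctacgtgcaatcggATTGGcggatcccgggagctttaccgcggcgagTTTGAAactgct
Mcm6 (chr1:128359709-128359821, minus strand): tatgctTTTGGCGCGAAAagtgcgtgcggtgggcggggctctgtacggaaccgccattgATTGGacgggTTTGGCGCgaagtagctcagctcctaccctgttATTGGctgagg

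CCAAT was found in 19 of the 28 members' windows (67.9%), against 35.2% of the 20482 genes with a window. An E2F match was found in 5 of 28 (Cdk2, Cdk1, Mcm5, Mcm6 and Mcm7; 17.9%), against 2.18% of all. TTTGAA was found in 6 of 28 (Mki67, Top2a, Cdc20, Ccnb2, Cdk1 and Mcm2; 21.4%), against 15.3% of all. The TCF site was found in 1 of 28, Cdk4, against 2.97% of all genes. These are matches of letters and no measure of binding.

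Libraries of poly(A) RNA held 14295644 to 22195576 reads, recovered from the FPKM, which are fragments per kilobase of gene and per 1000000 reads. Apoe reads were present in every library, at 43.1 to 101.0 FPKM in Rspo2-AAV and 38.8 to 149.3 FPKM in control livers, and whether they fall in the targeted part of the gene cannot be seen from counts per gene. Rspo2 had 49.9 to 573 FPKM in the Rspo2-AAV libraries and was listed at 0 in the controls. Of 10 hepatocyte markers, albumin among them, 0 were called in either direction, with 4 positive and 6 negative log2 changes and a median of -0.040. At an unadjusted p under 0.05 there were 4, where 21.5% of all tested genes had one. Alb, Apob and Serpina1c were lower (log2 changes -0.62, -0.45 and -0.65) and Tat was higher (1.19). Of the tested Kupffer cell and macrophage markers 4 of 9 were called lower, and of the stellate cell markers 2 of 7, where 2.65% of all tested genes were. In whole liver, fewer cells of a type and less RNA per cell cannot be told apart. Xist, the RNA of the inactive X chromosome, exceeded 1 FPKM in Rspo2-AAV 1, Rspo2-AAV 2 and control 3. Pancreatic acinar genes summed to 42863 FPKM in Rspo2-AAV 4, 3604 in Rspo2-AAV 5 and 420.3 in Rspo2-AAV 6, against at most 39.6 in the other 9. Numbers 1 to 3 had stood apart from numbers 4 to 7 in both groups in an earlier look at the data, whose values are not given here. The labels do not say whether the samples of a group are different animals, and each p-value covers the variation among these libraries alone.

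None of the tested members differed between the groups in the main test. Of the 36 members, 25 had a mean of at least 0.5 FPKM and were tested by limma, and 0 were called higher and 0 lower in Rspo2-AAV livers at an adjusted p under 0.05. Of all 13447 tested genes 5.20% were called, 2.55% higher and 2.65% lower. The median log2 change of the 25 was 0.0092, beside 0.0025 for all tested genes, with 13 positive and 12 negative. At an unadjusted p under 0.05 there were 6 members, 4 higher and 2 lower, a share of 24% beside 21.5% of all tested genes. In the same fit 8 of 10 listed Wnt targets were called higher, a list with results known beforehand. Among them Axin2, the common readout of the pathway, had 5.39, 7.36 and 9.42 FPKM (lowest, median and highest) in Rspo2-AAV livers and 1.37, 2.35 and 3.77 in control livers, with no overlap.

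The 95% intervals limit how large a change could have been missed. For 21 of the 25 tested members the interval of the log2 change lay within 1 in either direction, a 2-fold change on the log2(FPKM + 0.5) scale. The exceptions were Ccnd1, Myc, Cdkn1a and Cdkn2c. The scale shrinks changes of low genes, so the same was read from the recovered reads with limma-voom, over the 35 members with a mean of at least 0.1 FPKM. There 0 were called in either direction, where 3.31% of all genes were, 6 had an unadjusted p under 0.05 where 17.9% of all genes had one, and the interval lay within 2-fold for 19 and reached it for 16.

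**Figure D1:**
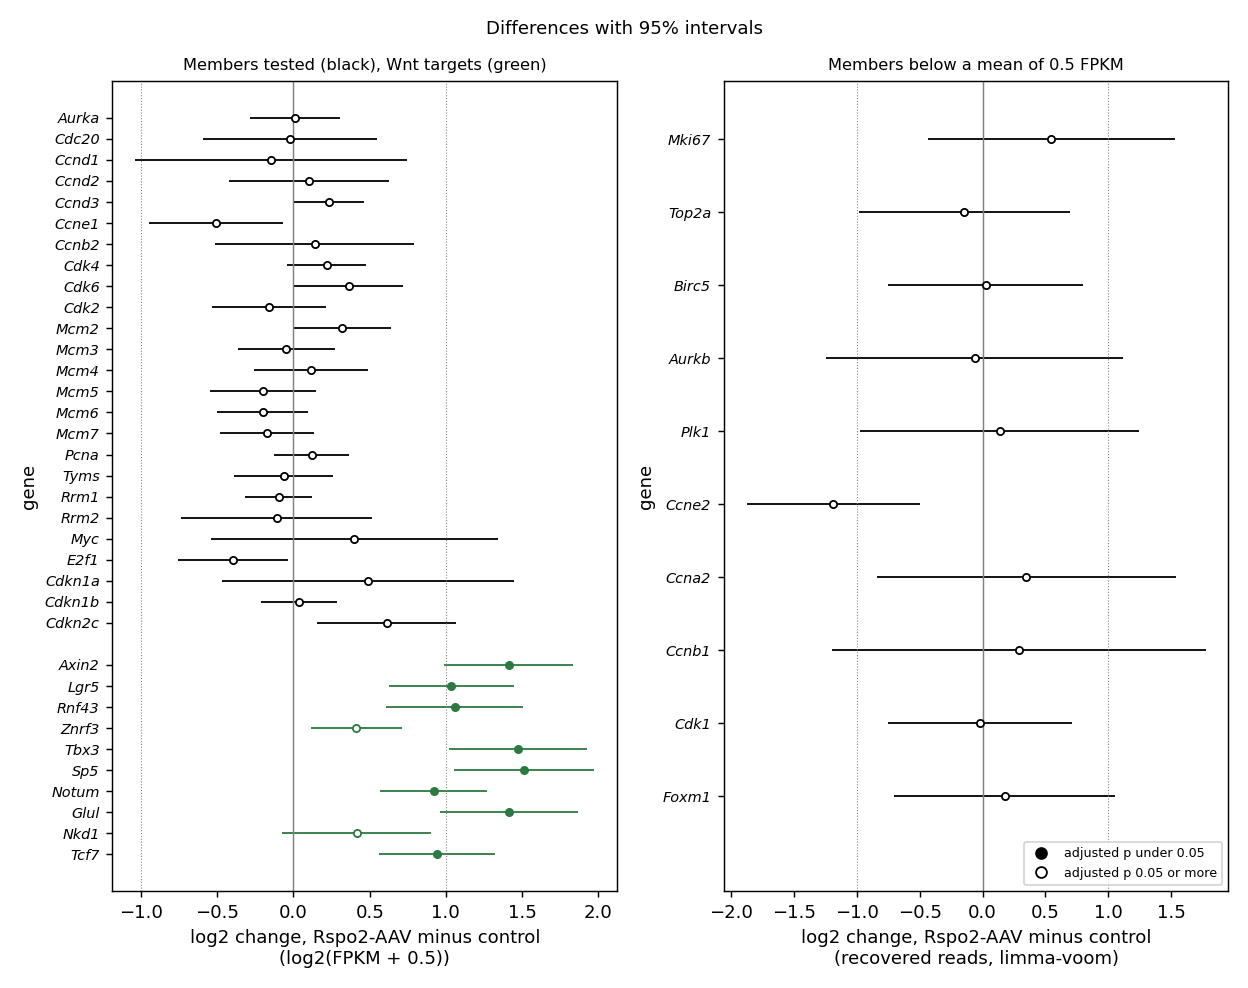
Log2 changes, Rspo2-AAV minus control, of the 25 tested members and 10 Wnt targets on the log2(FPKM + 0.5) scale (left), and of 10 members with a mean of 0.1 to 0.5 FPKM on recovered reads (right). Points are estimates from 6 against 6 libraries, lines are 95% intervals, filled points have an adjusted p under 0.05, and dotted lines mark 2-fold; every member point is open, while 8 Wnt targets are filled.

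Mitotic genes were low in both groups, and 2 of the 8, Aurka and Cdc20, reached the main filter of 0.5 FPKM. Mki67, the proliferation marker Ki-67 (ENSMUSG00000031004, GRCm38 chromosome 7, 135689784 to 135716361), had 0.160, 0.485 and 1.15 FPKM (lowest, median and highest) in Rspo2-AAV livers and 0.172, 0.356 and 0.467 FPKM in control livers. These values rest on 24 to 291 reads per Rspo2-AAV library and 23 to 90 per control library. Rspo2-AAV 1, 2 and 4 lay above every control, Rspo2-AAV 7 lay below every control, and the groups overlapped. On recovered reads the log2 change was 0.55 with an interval of -0.44 to 1.53 (adjusted p = 0.588).

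Top2a, the topoisomerase that untangles chromosomes, had 0.119, 0.336 and 0.607 FPKM in Rspo2-AAV livers and 0.209, 0.309 and 0.446 FPKM in control livers. Birc5, or survivin, a subunit of the chromosomal passenger complex, was at 0.456 ± 0.202 FPKM in Rspo2-AAV and 0.472 ± 0.214 FPKM in control livers (SD, n = 6 each). Aurkb, the kinase of that complex, was at 0.201 ± 0.129 in Rspo2-AAV and 0.234 ± 0.122 FPKM in control livers. The groups overlapped for each of these genes.

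Plk1, a kinase of mitotic entry, ranged from 0.125 to 0.681 FPKM in Rspo2-AAV livers and from 0.103 to 0.619 in control livers. Bub1, a kinase of the spindle checkpoint, was the lowest of the 36, at 0.0315 to 0.155 FPKM and 2 to 17 reads in Rspo2-AAV livers and 0.0125 to 0.166 FPKM and 1 to 14 reads in control livers. It was under the lower filter, and a difference was not detectable at this depth. Aurka, the spindle pole kinase, was the highest of the mitotic genes, at 1.33 ± 0.269 FPKM in Rspo2-AAV and 1.33 ± 0.311 FPKM in control livers. Its log2 change was 0.0092 with an interval of -0.28 to 0.30 (limma adjusted p = 0.978). Cdc20, which activates the anaphase-promoting complex, ranged from 0.184 to 1.06 FPKM in Rspo2-AAV and from 0.175 to 1.14 FPKM in control livers (log2 change -0.021, adjusted p = 0.974).

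**Figure D2:**
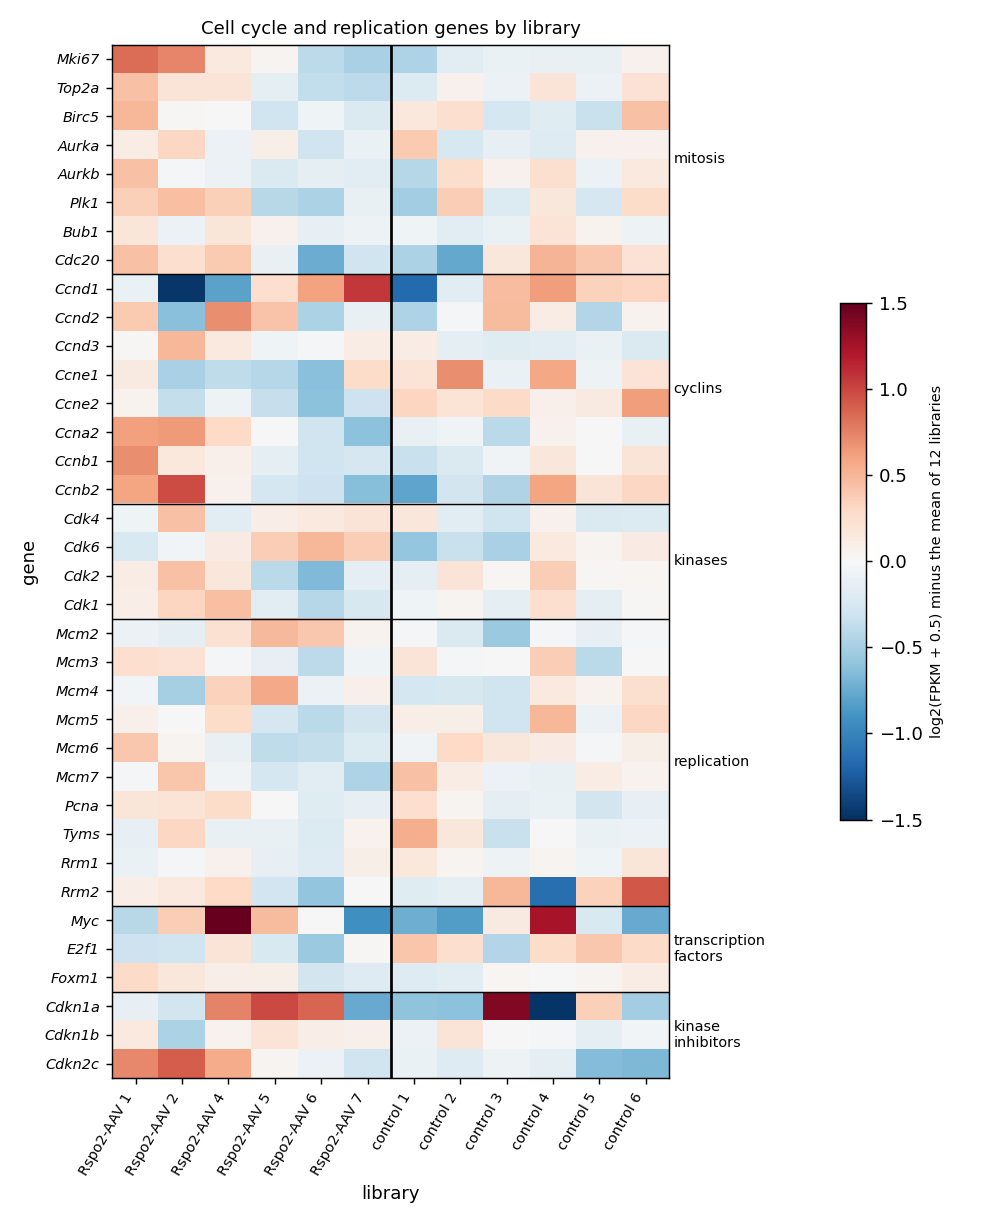
Values of the 36 genes (rows, by role) in the 12 libraries (columns, Rspo2-AAV left and control right), as log2(FPKM + 0.5) minus the gene's mean over all libraries; colours saturate at 1.5 in either direction. Rspo2-AAV 1 and 2 are red for Mki67, Ccna2 and Ccnb2, and Ccne2 is the 1 row of 36 in which all 6 Rspo2-AAV values lie below all 6 control values.

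The mitotic members varied among the Rspo2-AAV livers. Rspo2-AAV 1 and 2 both lay above Rspo2-AAV 4 to 7 for 6 of the 8 mitotic genes (Mki67, Top2a, Birc5, Aurka, Aurkb and Plk1) and for 14 of the 36 members. Among the 18357 genes whose mean was 0.1 FPKM or more, 12.8% did the same. The other 8 members were Ccna2, Ccnb1, Ccnb2, Mcm3, Mcm6, Mcm7, Foxm1 and Cdkn2c. This pattern was counted after the values were seen. Rspo2-AAV 1 and 2 were also the only Rspo2-AAV libraries with Xist above 1 FPKM (28.0 and 5.57) and the only ones from numbers 1 to 3. These traits cannot be told apart from the pattern, and their part was not tested.

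Markers of other cells also stood high in those libraries. The 6 neutrophil genes summed to 48.1 and 51.1 FPKM in Rspo2-AAV 1 and 2 and to 7.39 to 11.0 in Rspo2-AAV 4 to 7, against 6.01 to 58.1 in control livers. Control 3 held the 58.1, and its Mki67 was 0.359 FPKM. It was unlike Rspo2-AAV 1 and 2 in Mpo, 1 of the 6 neutrophil genes, at 0.112 FPKM against 0.926 and 1.18. The 9 erythroid genes summed to 779.5 and 1383 FPKM in Rspo2-AAV 1 and 2 and to 245.3 to 648 in Rspo2-AAV 4 to 7, against 103 to 360 FPKM in control livers. Of these genes 5 were called higher, the 4 globins and Tfrc, while Klf1, a factor of erythroid precursors, was at 3.17 ± 1.25 FPKM in Rspo2-AAV and 2.83 ± 0.661 FPKM in control livers. Alas2 was the 1 of the 9 with a negative log2 change (-0.99, limma adjusted p = 0.294). It was at 20.8 ± 6.66 FPKM in Rspo2-AAV and 49.5 ± 23.6 FPKM in control livers, with 9.17 in Rspo2-AAV 1 and 27.3 in Rspo2-AAV 2. None of the genes in either list was at 0 throughout. Their part in the mitotic values was not tested.

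A fit of numbers 4 to 7 alone with the lower filter was added after the values were seen. It leaves out Rspo2-AAV 1 and 2, which by construction lowers the Rspo2-AAV means of the 14 members that were high in them. It also leaves out controls 1 to 3. The 8 mitotic genes summed to 3.32, 3.50 and 3.40 FPKM in controls 1 to 3 and to 4.31, 3.77 and 4.81 in controls 4 to 6. Ccnb2 was at 0.148, 0.427 and 0.322 FPKM in controls 1 to 3 and at 1.18, 0.783 and 0.886 in controls 4 to 6. Cdc20, not among the 14, was at 0.323, 0.175 and 0.791 FPKM in controls 1 to 3 and at 1.14, 1.02 and 0.838 in controls 4 to 6. In that fit (4 Rspo2-AAV, 3 control), 24 of the 35 members with a mean of at least 0.1 FPKM had a negative log2 change. Their median was -0.17, beside 0.012 for all 18357 genes. None was called, where 8.69% of all genes were, and 9 had an unadjusted p under 0.05, 4 higher and 5 lower, where 26.6% of all genes had one. In that subset Ccnb2 had a log2 change of -1.03 ± 0.32 (SE, adjusted p = 0.0943), Cdc20 of -0.92 ± 0.44 and Mki67 of -0.27 ± 0.36.

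The late cyclins and their kinase were also low and overlapped between the groups. Ccna2, cyclin A2 of DNA synthesis and mitotic entry (chromosome 3, 36564865 to 36572150), had 0.0492, 0.437 and 0.813 FPKM (lowest, median and highest) in Rspo2-AAV livers and 0.134, 0.294 and 0.380 FPKM in control livers. Rspo2-AAV 1, 2 and 4 lay above every control and Rspo2-AAV 7 below every control. Ccnb1, cyclin B1, ranged from 0.0326 to 0.564 FPKM in Rspo2-AAV livers and from 0.0179 to 0.247 FPKM in control livers. Ccnb2, cyclin B2 (chromosome 9, 70407692 to 70421547), had 0.218, 0.552 and 1.70 FPKM in Rspo2-AAV livers and 0.148, 0.605 and 1.18 FPKM in control livers, with a log2 change of 0.14 and an interval of -0.51 to 0.79 (adjusted p = 0.836). Cdk1, their kinase, was at 0.387 ± 0.211 FPKM in Rspo2-AAV and 0.361 ± 0.0913 FPKM in control livers. Foxm1, which drives these genes, was at 0.196 ± 0.101 FPKM in Rspo2-AAV and 0.163 ± 0.0538 FPKM in control livers (SD, n = 6 each).

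The D-type cyclins, which answer to growth signals, had the highest mean FPKM of the 8 cyclins among the 36 members. Ccnd1, cyclin D1, often listed as a Wnt target (ENSMUSG00000070348, chromosome 7, 144929931 to 144939925), had 1.66, 5.79 and 11.8 FPKM (lowest, median and highest) in Rspo2-AAV livers and 2.15, 6.96 and 8.66 FPKM in control livers. Rspo2-AAV 2 was the lowest and Rspo2-AAV 7 the highest of all 12 libraries, so the Rspo2-AAV range enclosed that of the controls. The log2 change was -0.15 ± 0.41 (SE) with an interval of -1.04 to 0.74 (adjusted p = 0.879), and without Rspo2-AAV 2 it was 0.13. Ccnd2 was at 1.35 ± 0.656 FPKM in Rspo2-AAV and 1.17 ± 0.416 FPKM in control livers (adjusted p = 0.859). Ccnd3 was at 6.17 ± 1.03 FPKM in Rspo2-AAV and 5.15 ± 0.485 FPKM in control livers, a log2 change of 0.23 ± 0.11 that did not pass (adjusted p = 0.228).

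Their kinases had small positive changes that did not pass. Cdk4 was at 13.8 ± 2.13 FPKM in Rspo2-AAV and 11.7 ± 1.62 FPKM in control livers (log2 change 0.22 ± 0.12, adjusted p = 0.322). Cdk6 was at 3.07 ± 0.661 FPKM in Rspo2-AAV and 2.30 ± 0.614 FPKM in control livers (log2 change 0.36 ± 0.17, adjusted p = 0.229). Cdk2, the partner of E-type cyclins, was at 1.82 ± 0.623 FPKM in Rspo2-AAV and 2.03 ± 0.324 FPKM in control livers (log2 change -0.16, adjusted p = 0.647).

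The E-type cyclins and E2f1, which act at entry into DNA synthesis, had lower medians in Rspo2-AAV livers. Ccne2, cyclin E2 (ENSMUSG00000028212, chromosome 4, 11191351 to 11204779), had 0.487, 0.242, 0.3996, 0.245, 0.118 and 0.268 FPKM in Rspo2-AAV 1, 2, 4, 5, 6 and 7, and 0.691, 0.592, 0.658, 0.503, 0.544 and 0.970 FPKM in controls 1 to 6. All 6 Rspo2-AAV values lay below all 6 control values, on 6 to 43 against 27 to 65 reads. It was the 1 member of 36 whose groups did not overlap, where 2.79% of all genes at a mean of 0.1 FPKM or more did not overlap. Ccne2 was under the main filter. With the lower filter and a pseudocount of 0.1 it was called lower (log2 change -0.99 ± 0.25, adjusted p = 0.0444), 1 of 35 members where 1.88% of genes were called lower. That call was kept in 2 of 12 fits that each left out 1 library (without Rspo2-AAV 1 or 4), with log2 changes of -1.12 to -0.84 and adjusted p-values of 0.0220 to 0.103. On recovered reads it was not called (-1.19, interval -1.88 to -0.50, adjusted p = 0.0586). It overlaps Ints8 on the other strand, and reads of the 2 genes cannot be told apart without strand.

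Ccne1, cyclin E1, had 0.566, 0.196, 0.251, 0.222, 0.129 and 0.679 FPKM in Rspo2-AAV 1, 2, 4, 5, 6 and 7, and 0.623, 1.08, 0.411, 0.952, 0.424 and 0.627 FPKM in controls 1 to 6. Rspo2-AAV 2, 4, 5 and 6 lay below every control, and the log2 change of -0.51 ± 0.20 did not pass (adjusted p = 0.168). E2f1, an activator of replication genes (chromosome 2, 154559407 to 154569892), had 0.697, 0.965 and 1.502 FPKM in Rspo2-AAV livers and 0.799, 1.63 and 1.84 FPKM in control livers. Control 3 was the one control among the Rspo2-AAV values, since the other 5 controls were at 1.59 FPKM or more. It was also the only control with Xist above 1 FPKM. The log2 change of -0.40 ± 0.17 did not pass (adjusted p = 0.191). Without control 3 it was -0.52 and called lower (adjusted p = 0.0377), in a fit that called 3.66% of all genes lower.

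**Figure D3:**
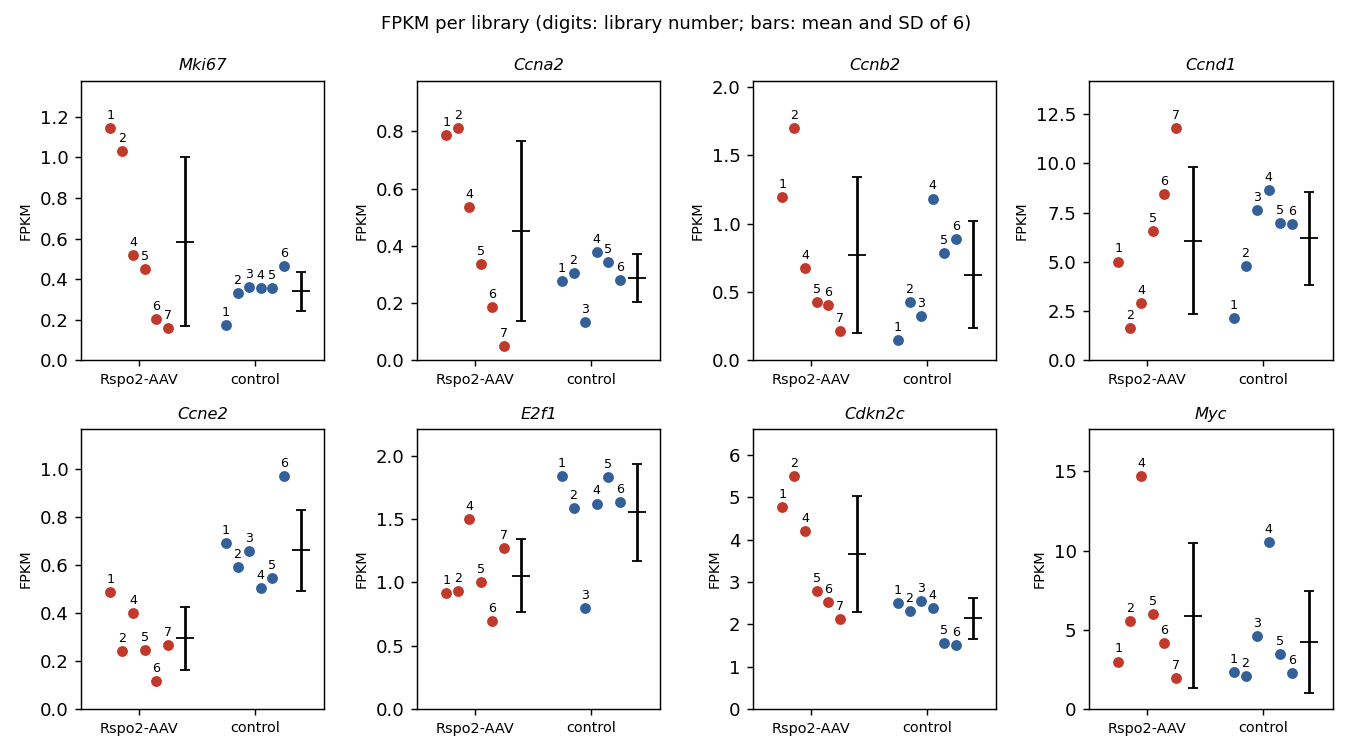
FPKM of 8 members in each library, Rspo2-AAV in red and control in blue, with the library number at each point and the mean and SD of 6 as a bar. The 6 Rspo2-AAV points of Ccne2 lie at 0.118 to 0.487 and the 6 control points at 0.503 to 0.970, while the groups overlap for the other 7.

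Replication genes, all 10 of them tested, had 3 positive and 7 negative log2 changes with a median of -0.080, and 0 were called. The Mcm2 to Mcm7 proteins form the helicase that opens replication origins. Mcm2 was at 0.932 ± 0.257 FPKM in Rspo2-AAV and 0.640 ± 0.150 FPKM in control livers (log2 change 0.32 ± 0.15, adjusted p = 0.230), with 4 Rspo2-AAV libraries above every control. Mcm6 was at 1.05 ± 0.335 FPKM in Rspo2-AAV and 1.26 ± 0.157 FPKM in control livers (log2 change -0.20 ± 0.14, adjusted p = 0.437), with 4 Rspo2-AAV libraries below every control. Subunits of 1 complex thus had changes of opposite sign, neither of which passed.

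The other helicase subunits also overlapped between the groups. Mcm3 was at 1.45 ± 0.318 FPKM in Rspo2-AAV and 1.52 ± 0.356 FPKM in control livers, and Mcm4 at 1.596 ± 0.529 FPKM in Rspo2-AAV and 1.40 ± 0.312 FPKM in control livers. Mcm5 was at 0.689 ± 0.214 FPKM in Rspo2-AAV and 0.870 ± 0.265 FPKM in control livers, and Mcm7 at 2.98 ± 0.753 FPKM in Rspo2-AAV and 3.39 ± 0.570 FPKM in control livers. Each of these differences was smaller than the SD of at least 1 group (n = 6 each).

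Pcna, the sliding clamp of DNA polymerase, was the most abundant replication member, with 9.99, 12.1 and 13.9 FPKM in Rspo2-AAV livers and 9.28, 10.5 and 13.6 FPKM in control livers. Its log2 change was 0.12 with an interval of -0.13 to 0.37 (adjusted p = 0.597). Tyms, thymidylate synthase, was at 1.00 ± 0.208 FPKM in Rspo2-AAV and 1.09 ± 0.351 FPKM in control livers. Rrm1 and Rrm2 are the subunits of ribonucleotide reductase, which makes deoxyribonucleotides. Rrm1 was at 0.825 ± 0.103 FPKM in Rspo2-AAV and 0.916 ± 0.105 FPKM in control livers, and Rrm2 ranged from 1.31 to 2.87 FPKM in Rspo2-AAV livers and from 0.747 to 4.71 FPKM in control livers. The narrow intervals of Pcna and Rrm1 (-0.32 to 0.12) contrast with Rrm2, whose interval ran from -0.74 to 0.52.

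Myc, a growth factor-induced transcription factor (chromosome 15, 61985391 to 61990374), had 1.97, 4.84 and 14.7 FPKM (lowest, median and highest) in Rspo2-AAV livers and 2.10, 2.89 and 10.5 FPKM in control livers. The highest library of each group carried number 4. The log2 change of 0.40 had an interval of -0.54 to 1.34 (adjusted p = 0.652). Without Rspo2-AAV 4 and 5, the libraries with the most acinar RNA, it was -0.045.

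Among the kinase inhibitors all 3 changes were positive and none passed. Cdkn2c, the inhibitor p18 of Cdk4 and Cdk6 (ENSMUSG00000028551, chromosome 4, 109660876 to 109667189), had 2.12, 3.50 and 5.502 FPKM in Rspo2-AAV livers and 1.51, 2.35 and 2.55 FPKM in control livers. Rspo2-AAV 1, 2, 4 and 5 lay above every control and the others among them. Its log2 change of 0.61 ± 0.21 had the smallest adjusted p of the tested members (0.113). With a term for numbers 1 to 3 against 4 to 7 the change was 0.70 and called (adjusted p = 0.0226), where 3.09% of all genes were called higher.

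Cdkn1a, the p53-induced inhibitor p21, had 4.24, 9.86 and 15.4 FPKM in Rspo2-AAV livers and 2.37, 4.91 and 20.4 FPKM in control livers. Control 3, the only control with Xist above 1 FPKM, was the highest of all libraries. The interval of Cdkn1a ran from -0.47 to 1.45 (adjusted p = 0.573). Cdkn1b, the inhibitor p27 of resting cells, was at 5.55 ± 0.911 FPKM in Rspo2-AAV and 5.36 ± 0.485 FPKM in control livers, with an interval of -0.22 to 0.29 (adjusted p = 0.902).

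A wider list of 140 cell cycle genes likewise gave no call by the main test. Of these, 79 were tested, and 0 were called higher and 0 lower by limma, where 5.20% of all tested genes were called. At an unadjusted p under 0.05 there were 12 of the 79, where 21.5% of all tested genes had one. The median log2 change of the 79 was -0.021. In 40 further replication genes (22 tested, median -0.062) Mcm10, which loads the replication machinery, had 1.34, 4.32 and 8.53 FPKM in Rspo2-AAV livers and 2.96, 13.4 and 17.0 FPKM in control livers. Its log2 change was -1.31 ± 0.44 (adjusted p = 0.106), and it was called lower in 4 of 26 alternative fits. Among these were numbers 4 to 7 with the lower filter (-1.66, adjusted p = 0.0263) and the fit without control 3 (-1.66, adjusted p = 0.0158), the only control with Xist above 1 FPKM. Of all genes, 8.69% were called in either direction in numbers 4 to 7 with the lower filter, and 3.66% were called lower without control 3. Gins4, a partner of the helicase, was at 7.46 to 11.97 FPKM in Rspo2-AAV and 6.90 to 13.8 FPKM in control livers (adjusted p = 0.869).

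In 49 further mitotic genes (14 tested, median 0.11) Cks2, a subunit of cyclin-kinase complexes, was at 9.62 to 17.4 FPKM in Rspo2-AAV and 9.57 to 16.6 FPKM in control livers, and Pttg1, or securin, at 10.3 to 21.6 FPKM in Rspo2-AAV and 9.44 to 14.4 FPKM in control livers. Ccnf, cyclin F, was chosen after its values were seen. It was at 2.90 to 6.95 FPKM in Rspo2-AAV and 5.64 to 11.7 FPKM in control livers (log2 change -0.70 ± 0.21, adjusted p = 0.0704), and was called lower with limma-voom (adjusted p = 0.0471), without Rspo2-AAV 2 (adjusted p = 0.0376) and without control 3 (adjusted p = 0.0437).

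In 33 regulators (26 tested, median -0.040) Ccng1, cyclin G1, was at 8.21 to 15.5 FPKM in Rspo2-AAV and 12.4 to 18.2 FPKM in control livers, and E2f4, a repressor in resting cells, at 10.5 to 13.9 FPKM in Rspo2-AAV and 9.55 to 12.6 FPKM in control livers. Cdkn2b, the inhibitor p15 of Cdk4 and Cdk6, was under the main filter and was also chosen after its values were seen. It had 0.306, 0.445 and 0.757 FPKM in Rspo2-AAV livers and 0.0375, 0.0786 and 0.335 FPKM in control livers. With the lower filter it was called higher (log2 change 1.56 ± 0.30, adjusted p = 0.0137), as it was on recovered reads (adjusted p = 0.0165), the 1 such gene of 121, where 1.77% of all genes were called higher. The call held in 12 of 12 fits that each left out 1 library. In numbers 4 to 7 alone it was not called (1.43, adjusted p = 0.103).

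In 18 p53-responsive genes (17 tested, median 0.13) Gadd45g, a growth arrest gene, ranged from 19.4 to 205.1 FPKM in Rspo2-AAV and from 7.29 to 43.8 FPKM in control livers (log2 change 1.52 ± 0.63, adjusted p = 0.182). Plk3, a stress kinase, ranged from 42.5 to 76.3 FPKM in Rspo2-AAV and from 15.2 to 91.3 FPKM in control livers (1.10 ± 0.39, adjusted p = 0.119). Control 4 held the 91.3, and without it Plk3 was called higher (1.46, adjusted p = 0.0112), the 1 of 26 alternative fits that called it. In that fit 18.1% of all genes had an unadjusted p under 0.05, a looser threshold than the call, and the share called is not given here.

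Of the 36 members, 8 overlap a protein-coding gene on the other strand (Cdc20, Ccnd1, Ccnd3, Ccne2, Ccna2, Cdk4, Cdk2 and Mcm7), and 5 have an annotated pseudogene copy (Ccnd3, Ccnb1, Ccnb2, Pcna and Tyms). Reads shared with these could not be separated, so their levels are uncertain to that extent.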

How the data were processed

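RNA was sequenced from 12 liver samples, and 1 deposited table holds FPKM (fragments per kilobase and per 1000000 reads) as the authors computed them, 1 column per sample. The submitters' processing notes list DESeq2 1.20.0, featureCounts 1.5.0-p3 and HISAT2 2.0.5, and the builds GRCm38 and mm10, without roles or order; whether counting used strand is not given in the sources used here. The gene lengths used to recover reads are those the authors deposited.

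FPKM times gene length gave whole reads (100% of positive values within 0.01 reads), with totals of 14295644 to 22195576 reads per library. Groups were compared with limma 3.58.1 (R 4.3.3, trend) on log2(FPKM + 0.5) over 13447 genes whose mean reached 0.5 FPKM, Benjamini-Hochberg adjusted, called under 0.05. Fold changes on that scale understate changes of low genes, so limma-voom on recovered reads from a mean of 0.1 FPKM, fits limited to numbers 4 to 7 at that filter, and leave-one-out fits of Ccne2 and Cdkn2b were added after the data were seen.

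The 36 genes and all lists were chosen with earlier results of these data known. Every one of the 36 is named. Of each wider list, called genes were to be named, or the 2 with the highest mean where none was called. The figures were drawn with matplotlib 3.10.9 in Python 3.11.15.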

Additional observations from a re-analysis of the deposited data

Results flagged for a closer look

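In 10 of 72 sets (36 genes in 2 groups of 6) 1 library lay apart from the others, with a gap to the next value beyond Dixon's 95% limit for 6 samples, which chance gives in about 1 set in 20. In Rspo2-AAV 1, Birc5 was at 0.839 FPKM (next 0.459), Aurkb at 0.457 (next 0.199) and Ccnb1 at 0.564 (next 0.232), each the highest of its group. In Rspo2-AAV 2, Ccnd3 was the highest at 8.15 FPKM (next 6.28) and Cdkn1b the lowest at 3.76 (next 5.62). In control 1, Ccnd3 was the highest at 6.09 FPKM (next 5.18) and Mcm7 at 4.45 (next 3.43). Myc was the highest in Rspo2-AAV 4 at 14.7 FPKM (next 6.00) and in control 4 at 10.5 FPKM (next 4.61). E2f1 was the lowest in control 3 at 0.799 FPKM (next 1.59).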

How the results depend on the processing

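In 26 alternatives the count of members called was 0 or 1 in each direction. It was 1 higher, Cdkn2c, with the number term and with the replicate block (log2 change 0.78, adjusted p = 0.0310), and 1 lower, Ccne2, with the lower filter. Leaving out 1 library gave 0 to 0 higher and 0 to 1 lower (E2f1). Other cell cycle genes called higher were 1 on recovered reads with the lower filter, 1 with the lower filter and 1 without a filter (Cdkn2b), and 1 without the 3 libraries with Xist (Spc24). Those called lower were 1 with limma-voom (Ccnf), 1 within numbers 4 to 7 under either filter (Mcm10), and 3 without the libraries with Xist (Ccnf, Dut and Mcm10). Without 1 library they were 0 to 1 higher and 0 to 2 lower. In the fit without the libraries with Xist, 27.6% of all genes had an unadjusted p under 0.05, beside 21.5% in the main test. The share of all genes called in that fit is not given here.

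Signs turned for 20 of 48 genes, in 46 of 993 values, and 0 of these were called. Within numbers 4 to 7 with the lower filter they were Mki67 (-0.27), Aurka (-0.10), Plk1 (-0.47), Ccna2 (-0.39), Ccnb1 (-0.76), Ccnb2 (-1.03), Foxm1 (-0.33) and Ccng1 (0.064), and with the main filter Aurka (-0.079), Ccnb2 (-0.65) and Ccng1 (0.062). Without the libraries with Xist they were Aurka (-0.12), Ccnd1 (0.28) and Ccnb2 (-0.29). Without Rspo2-AAV 4 and 5 they were Ccnd2 (-0.15), Mcm4 (-0.079), Myc (-0.045) and Cdkn1b (-0.019). Birc5 had 0.024 and Cdc20 0.038 on recovered reads with the lower filter, Cdc20 0.040 with limma-voom and 0.069 with the replicate block, and Cdk1 0.015 without a filter. Without 1 library the values ran from -0.052 to 0.089 for Aurka, -0.041 to 0.28 for Ccnb2, -0.39 to 0.13 for Ccnd1, -0.029 to 0.24 for Ccnd2, -0.18 to 0.13 for Cdc20, -0.0020 to 0.13 for Cdkn1b, -0.17 to 0.024 for Gins4, -0.13 to 0.027 for Mcm3, -0.35 to 0.065 for Rrm2 and -0.14 to 0.040 for Tyms. The cause of these changes was not tested.

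The shared numbers do not pair the samples: correlations of same-numbered deviations ran from -0.25 to 0.16, and 1 of 5 Rspo2-AAV libraries matched its own number best. The block took the calls among all genes to 145 higher and 152 lower, against 343 and 356. Ccne2 lost its lower-filter call in 10 of 12 fits without 1 library (-1.12 to -0.84). The 11 members with a mean under 0.5 FPKM were outside the main test, and Bub1, with 1 to 17 reads per library, was also outside the fits with the lower filter.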
